A study of Homo sapiens with 8 samples.

Results

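The splice choices described here are those whose answer to the phorbol ester PMA was lost or gained when CELF2 was depleted from JSL1 T cells. They are counted as local splicing variations (LSVs), each a group of junctions with 1 exon in common as their start or as their end. A junction is valued by its percentage share within the LSV. An LSV was placed in the lost class where some junction moved by at least 20 percentage points with PMA in control cells and no junction moved by 10 points or more in depleted cells. It was placed in the gained class in the opposite case. Of 87517 LSVs found with identical junctions in both of the authors' deposited tables, 1127 (1.29%) were lost and 725 (0.828%) were gained, together 1852.

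JSL1 cells are a monoclonal offshoot of the human T cell line Jurkat, so each value comes from 1 clone. The 4 groups of 2 libraries each were CELF2-depleted cells with PMA, CELF2-depleted cells without PMA, control cells with PMA and control cells without PMA. Depletion came from short hairpin RNAs delivered by lentivirus, stably integrated and induced by doxycycline, and PMA treatment was 48 hours at 20 ng/mL. The labels do not say if controls had doxycycline or a hairpin of their own, so any part of these in a difference between depleted and control cells cannot be told apart from that of CELF2. Of 14 T lineage marker genes 11 had an LSV in the tables, against 2 of 7 B lineage genes (CD79A and BLK) and 0 of 6 myeloid genes, which shows only which genes had spliced reads with alternatives.

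CELF2 is an RNA-binding protein that prefers UG-rich elements in pre-mRNA and can promote or repress inclusion of an exon depending on where it binds. PMA stands in for diacylglycerol, activates protein kinase C and, through it, the Ras and NF-kappaB branches of T cell activation. Activation of T cells is known to alter many splice choices, and in Jurkat-derived cells it is also known to raise CELF2 itself.

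Every share below is the authors' single pooled value for a group, taken from the authors' deposited tables, with no value per library, so no standard deviation or test over libraries could be given. The authors' own measure of error is the posterior probability that depleted and control cells differ by at least 20 points within a state. An LSV was called where this reached 0.95 for any junction with or without PMA. The posterior probability is no p-value and bears on the difference between depleted and control cells, not on the PMA change. Because the classes were cut from the same 4 shares, their sizes and the sizes of their differences are a description.

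In depleted cells 1634 LSVs (1.87%) moved by at least 20 points with PMA, against 2264 (2.59%) in control cells. The lost class made up 49.8% of the LSVs that moved in control cells, and the gained class 44.4% of those that moved in depleted cells. Another 1114 LSVs (1.27%) kept a PMA change of at least 10 points in the same direction in both kinds of cells, of which 280 reached 20 points in both. A further 300 (0.343%) moved in opposite directions, of which 36 reached 20 points in both, and 250 (0.286%) were mixed, with a lead junction that would count as lost or gained but another junction past the 10-point bound. The lost LSVs lay in 882 genes (8.39% of 10517) and the gained ones in 605 (5.75%). The 73 genes with both kinds were 8.28% of the genes with a lost and 12.1% of those with a gained LSV.

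The lead junction of an LSV is that with the largest PMA change in either kind of cells. At the lead junction the typical lost LSV had a PMA change of 4.1 points in depleted cells, against 24.7 points in control cells (medians). For the gained class these medians at the lead junction were 24.1 points in depleted cells and 4.1 points in control cells. Of the lost LSVs 392 (34.8%) were called, 346 of them with PMA and 64 without. Of the gained LSVs 224 (30.9%) were called, 120 with PMA and 116 without. Over all joined LSVs 1.72% were called with PMA, 0.9% without and 2.31% in either state, but the class rule and the call use the same shares, so nothing is read from that contrast. The difference of differences is the PMA change in depleted cells minus that in control cells. Taken from the authors' expected changes, which their model shrinks towards 0, it reached 10 points in the same direction at the lead junction in 971 lost (86.2%) and 584 gained LSVs (80.6%), against 440 kept LSVs (39.5%). The class rule puts the unshrunken difference there over 10 points in every lost and gained LSV. Nothing is therefore read from the contrast with the kept class.

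Many members lay near a bound. In the lost class 290 LSVs (25.7%) were within 2 points above the 20-point bound and 209 (18.5%) within 2 points below the 10-point bound. Just outside, 393 LSVs had a highest change in control cells of up to 19.9 points, and 229 had a change in depleted cells starting at 10 points. In the gained class 205 (28.3%) and 147 (20.3%) were as close inside the same bounds, with 314 and 144 just outside. The count of each class therefore moves with the bounds, and raising the 20-point bound to 30 points left 253 lost and 131 gained LSVs.

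**Figure D1:**
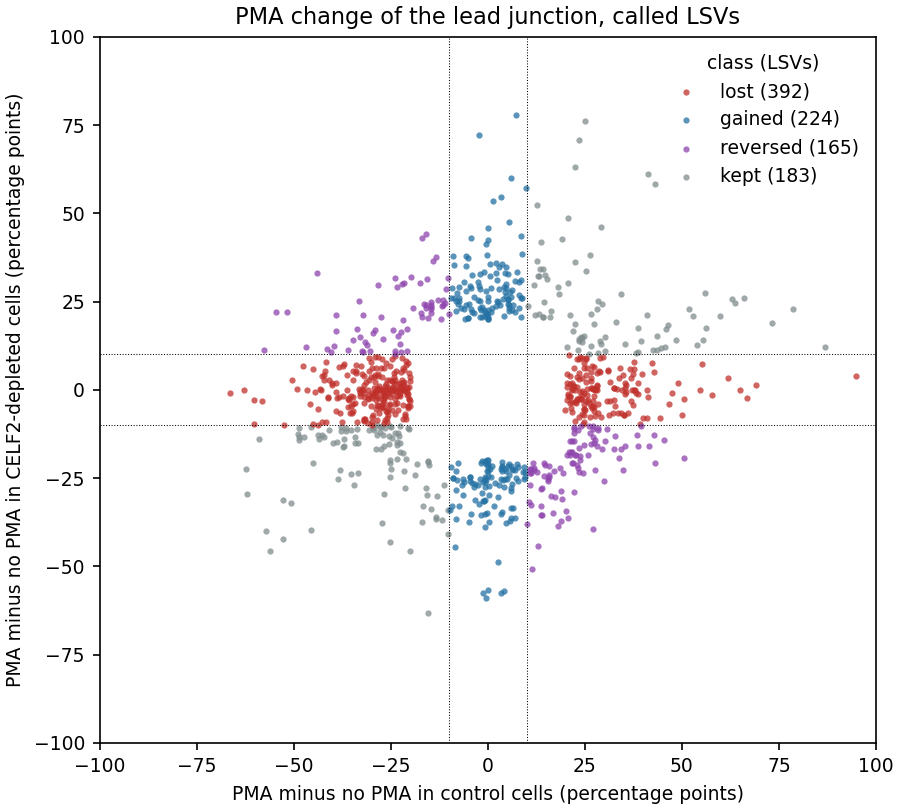
Each point is 1 called LSV of the lost, gained, kept or reversed class, placed by the PMA change of its lead junction in control cells (horizontal axis, percentage points) and in CELF2-depleted cells (vertical axis, percentage points), and dotted lines mark 10 points. The 392 lost LSVs lie along the horizontal axis and the 224 gained ones along the vertical axis, as the rule for the classes fixes.

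Cassette exons gave a second reading of the same choice, because an exon can be measured by the LSV that leaves the upstream exon (source) and by the LSV that enters the downstream exon (target). These share the junction that skips the exon, so part of their error is common. Among 6431 exons seen from both sides, 56 were lost by the source LSV, and in the target LSV 29 of them (51.8%) were lost as well, against 0.886% of all 6431 exons. The difference of differences had the same sign in 55 of the 56. Read from the target side, 17 of the 56 (30.4%) fell under 20 points in both kinds of cells. Of 30 exons gained by the source LSV, 9 (30%) were gained by the target LSV, against 0.482% of all exons, and 29 had the same sign. Another 18 of these 30 fell under 20 points in both kinds of cells when read from the target side. In the reverse reading, 55 of 57 exons lost by the target LSV had the same sign in the source LSV. There 22 of the 57 (38.6%) fell under 20 points in both kinds of cells. Their median difference was 24.5 points in the target and 17.8 points in the source LSV. Of 31 exons gained by the target LSV, 25 (80.6%) had the same sign in the source LSV. On that side 20 of the 31 (64.5%) fell under 20 points in both kinds of cells. For comparison, of 45 exons kept by the source LSV 23 (51.1%) were kept by the target LSV, against 0.606% of all exons, and of 8 reversed ones 2 (25%) were reversed, against 0.202%. Across all 6431 exons the difference of differences had a Pearson r of 0.741 between sides, as a description, and the SD of source minus target was 4.19 points, or 8.70 points among the 1389 exons with a value over 5 points.

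**Figure D2:**
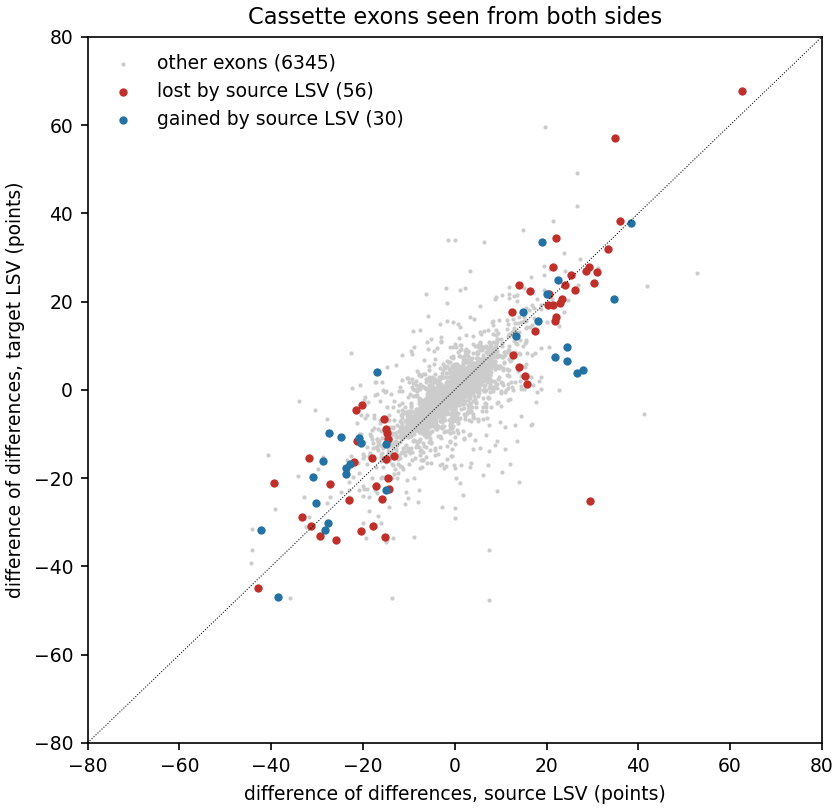
Each point is 1 of 6431 cassette exons, placed by its difference of differences in percentage points (depleted minus control PMA change of inclusion) from the source LSV and from the target LSV, with the line of equality dotted. The 56 exons lost by the source LSV had the same sign in the target LSV in 55 cases and the 30 gained ones in 29. Of 31 exons gained by the target LSV, 25 had the same sign in the source LSV.

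The 29 exons lost from both sides hold the class in 2 readings. Inclusion with PMA was lower than without in control cells for 16 of them and higher for 13. The leading exon was one of 90 nucleotides in SLMAP, a tail-anchored membrane protein of the STRIPAK phosphatase complexes, at chr3:57911572-57911661 (hg19, + strand). Its inclusion, averaged over both sides, was 83.3% with PMA and 84.1% without in depleted cells, against 22.8% with PMA and 88.7% without in control cells. Only PMA-treated control cells skipped it in most transcripts.

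The other exons at the head of the lost class had smaller differences. In GRK4, a kinase of G protein-coupled receptors, inclusion was 85.3% with PMA and 79.2% without in depleted cells, against 48.8% and 88.8% in control cells. In CAPN7, an atypical calpain protease, it was 96.2% and 97.5% in depleted cells, against 63.1% with PMA and 97.2% without in control cells. TTC8, a subunit of the BBSome that carries cargo to cilia, showed the same shape, with 97.4% in both states of depleted cells, against 67.2% with PMA and 95.0% without in control cells. In these exons the level in PMA-treated control cells stood apart from the other 3.

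CSPP1, a centrosome and cilium protein, followed with 96.3% and 97.4% in depleted cells, against 62.3% with PMA and 92.3% without in control cells. ZNF248, a zinc finger gene, had 95.1% and 95.8% in depleted cells, against 35.1% with PMA and 64.0% without in control cells, so depletion also differed without PMA. In IQSEC1, an exchange factor for the Arf6 GTPase, inclusion was 36.1% and 31.6% in depleted cells, against 15.3% with PMA and 39.3% without in control cells.

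The remaining 3 exons of the first 10 were included more with PMA in control cells. In ENTHD2, which encodes a protein of adaptor complex AP-4 vesicles, inclusion was 64.4% with PMA and 66.3% without in depleted cells, against 86.4% and 57.0% in control cells. In CCDC84 it was 65.6% and 71.6% in depleted cells, against 92.9% with PMA and 67.8% without in control cells. UBR3, an E3 ubiquitin ligase, had 92.6% and 93.4% in depleted cells, against 96.2% with PMA and 66.8% without in control cells. Here it was the untreated control cells that stood apart. Of these 10 exons all but those of ENTHD2, CCDC84 and IQSEC1 were called.

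The 9 exons gained from both sides included 6 with a called LSV. RPGRIP1L, a protein of the ciliary transition zone, had inclusion of 52.2% with PMA and 88.4% without in depleted cells, against 44.6% and 43.8% in control cells. In ATP6AP1L, a relative of a vacuolar ATPase accessory subunit, it was 76.8% and 38.9% in depleted cells, against 96.6% and 96.9% in control cells. GRIP1, a PDZ-domain scaffold protein, had 21.1% and 49.1% in depleted cells, against 6.4% and 4.3% in control cells. In each of these 3 the untreated depleted cells differed most from control cells, and with PMA the depleted cells came closer to them.

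In 3 of the others depleted and control cells differed by at least 20 points with PMA and by under 10 points without. RFFL, an E3 ubiquitin ligase of endosomes, had 67.6% with PMA and 90.1% without in depleted cells, against 96.4% and 90.0% in control cells. TERF1, a telomere-binding protein of the shelterin complex, had 65.3% and 36.4% in depleted cells, against 42.8% and 34.7% in control cells. For PTPRS, a receptor tyrosine phosphatase, the stretch between the junctions was 8927 nucleotides long, so it may hold more than 1 exon, and its inclusion was 55.4% and 92.0% in depleted cells, against 89.5% and 83.4% in control cells.

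CENPE, the kinetochore motor protein, had inclusion of 96.7% with PMA and 75.2% without in depleted cells, against 90.1% and 92.3% in control cells. TMEM260 had 64.6% and 92.7% in depleted cells, against 47.1% with PMA and 54.4% without in control cells. FGFR1OP, a centrosome protein, had 77.5% and 54.2% in depleted cells, against 59.7% and 52.7% in control cells. The exons of CENPE, TERF1 and FGFR1OP were not called.

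The sequences shown are those of the exons with the largest differences among exons of at most 120 nucleotides that could be matched to a transcript and are coding in it, with that of TERF1 left out. The SLMAP and NCOA5 exons (not coding in the matched transcript), and those of ZNF248 and ATP6AP1L (not matched), did not meet this rule. The printed exons let the members be compared at the base level with the UG-rich elements that CELF2 is known to prefer. They were read from GENCODE v29 transcripts (GRCh38) on the transcript strand, matched by gene identifier, exon length and the lengths of both flanking introns, and each run is 5′ to 3′ with every TGT in capitals. Positions are on hg19, from the authors' deposited tables. The 6 lost exons come first and the 4 gained exons after them.
GRK4 (lost, 64 nucleotides, chr4:3011375-3011438, + strand): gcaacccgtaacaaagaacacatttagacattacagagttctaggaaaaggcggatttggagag
CCDC84 (lost, 31 nucleotides, chr11:118883942-118883972, + strand): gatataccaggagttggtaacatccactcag
IQSEC1 (lost, 50 nucleotides, chr3:12944273-12944322, - strand): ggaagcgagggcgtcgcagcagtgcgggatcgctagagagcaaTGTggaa
TTC8 (lost, 84 nucleotides, chr14:89341370-89341453, + strand): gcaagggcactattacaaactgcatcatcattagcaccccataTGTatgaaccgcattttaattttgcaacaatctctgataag
SUCO (lost, 111 nucleotides, chr1:172522400-172522510, + strand): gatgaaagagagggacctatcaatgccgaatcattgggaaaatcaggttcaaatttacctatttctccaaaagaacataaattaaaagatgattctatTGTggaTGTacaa
APP (lost, 54 nucleotides, chr21:27277336-27277389, - strand): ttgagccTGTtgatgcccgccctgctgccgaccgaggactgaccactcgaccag
RPGRIP1L (gained, 102 nucleotides, chr16:53672222-53672323, - strand): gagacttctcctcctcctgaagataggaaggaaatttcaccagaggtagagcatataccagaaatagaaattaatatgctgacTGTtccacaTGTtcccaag
GRIP1 (gained, 45 nucleotides, chr12:66770797-66770841, - strand): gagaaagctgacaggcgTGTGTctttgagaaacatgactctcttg
RFFL (gained, 24 nucleotides, chr17:33341759-33341782, - strand): tcagtggtgccgaagaccaaaacg
TMEM260 (gained, 115 nucleotides, chr14:57083901-57084015, + strand): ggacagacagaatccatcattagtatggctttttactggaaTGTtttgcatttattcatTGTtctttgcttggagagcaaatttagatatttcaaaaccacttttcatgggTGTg

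Of these exons 2 were not described above. In SUCO inclusion was 90.1% with PMA and 91.7% without in depleted cells, against 95.2% and 70.4% in control cells. In APP, the amyloid precursor protein, it was 94.0% and 92.0% in depleted cells, against 70.2% with PMA and 93.8% without in control cells.

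TGT was searched on the transcript strand with overlapping matches counted. It occurred in 20 of 27 lost exons that could be matched (74.1%) and in 5 of 7 gained ones (71.4%), against 78.4% of the 5056 matched exons seen from both sides. The density was 1.77 TGT per 100 bases in both the lost and the gained exons and 1.60 in all matched exons. Longer exons hold the triplet more often. Among all matched exons within 10 bases in length, 64.9% held a TGT at the length of the GRK4 exon, which has none, and 82.4% at the length of the TMEM260 exon, which has 3. These letters are a description of the exon body, and the flanking introns were not read.

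The lost exons had a median length of 94 nucleotides (31 to 1295) and 17 of 29 (58.6%) were a multiple of 3 long, which keeps the reading frame where the exon is coding. Of the 9 gained exons, with a median of 78 nucleotides, 7 (77.8%) were. Over the 6422 distinct exons seen from both sides the median was 117 nucleotides and 43.5% were a multiple of 3, and for the 23 kept exons the share was 65.2%.

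Across all LSVs, the 15 called lost LSVs with the largest shrunken difference, 1 for each gene, had a common shape. In 10 of the 15 depletion made a difference of at least 20 points with PMA and of under 10 points without. In the lead LSV of TMEM99 the junction at chr17:38984548-38989367 had 7.5% with PMA and 3.5% without in depleted cells, against 97.5% with PMA and 2.7% without in control cells. In GSTM2, a glutathione S-transferase of the mu class, the lead junction had 9.9% and 6.5% in depleted cells, against 73.1% with PMA and 11.2% without in control cells. GSTM2 has close paralogs, so reads may have been shared between them.

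FAT1, an atypical cadherin, had a cassette exon with inclusion of 73.3% and 71.7% in depleted cells, against 11.9% with PMA and 69.6% without in control cells. TMTC4, an endoplasmic reticulum enzyme that mannosylates cadherins, had one at 86.5% and 80.7% in depleted cells, against 27.0% with PMA and 71.9% without in control cells. In FAM188A, a deubiquitinase, inclusion was 76.5% and 79.6% in depleted cells, against 2.7% with PMA and 60.8% without in control cells. In all 3 the longer junction had the larger share in PMA-treated control cells, and the shorter junction in the other 3 groups. None of the 3 was among the exons lost from both sides. Here and below, inclusion read from 1 side is the share of the shorter of 2 junctions. An alternative first or last exon would look the same, so skipping of an exon was not shown by such values.

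The opposite direction was seen in DDX12P, where inclusion was 2.6% and 2.9% in depleted cells, against 63.1% with PMA and 14.0% without in control cells. Other called LSVs of DDX12P were put in the kept and reversed classes. In ITGAE, the integrin chain CD103 through which lymphocytes bind E-cadherin, the lead junction had 83.2% and 92.9% in depleted cells, against 26.8% with PMA and 87.1% without in control cells. Its change in depleted cells, -9.7 points, lay just inside the 10-point bound, and another called LSV of ITGAE was put in the kept class. In ARHGEF3, a guanine nucleotide exchange factor, the lead junction had 28.4% and 28.6% in depleted cells, against 81.8% with PMA and 16.7% without in control cells. NCOA2, a coactivator of nuclear receptors, had a junction at the 2.5% floor of the tables in both states of depleted cells, against 57.3% with PMA and 2.5% without in control cells.

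Retained introns were the event in the other 4. The spliced junction of KIFC2, a kinesin, had 36.3% and 38.7% in depleted cells, against 84.0% with PMA and 17.1% without in control cells. That of THBS3, a thrombospondin, had 35.9% and 43.9% in depleted cells, against 88.8% with PMA and 47.7% without in control cells. In both genes the intron was removed most often in PMA-treated control cells. UQCC3, an assembly factor of respiratory complex III, had 50.9% and 48.1% in depleted cells, against 19.8% with PMA and 70.3% without in control cells. PTS, an enzyme of tetrahydrobiopterin synthesis, had 91.9% and 85.3% in depleted cells, against 40.4% with PMA and 88.1% without in control cells. In these 2 the intron was instead retained most often in PMA-treated control cells. Other called LSVs of PTS were put in the kept class, and another of THBS3 in the reversed class.

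CELF2 was itself among the leading lost genes, and its transcripts are the target of the hairpins. Any direct effect of the hairpins on its junction shares cannot be told apart from a lost PMA response. Of its 11 LSVs, 2 were lost and 3 kept. At the junction chr10:11371060-11372419 the share was 92.1% with PMA and 92.9% without in depleted cells, against 24.5% with PMA and 91.0% without in control cells. A cassette exon upstream had inclusion of 89.3% and 97.3% in depleted cells, against 53.9% with PMA and 91.7% without in control cells, read from the target side. From the source side the same choice was kept, not lost, with a lead junction at 85.6% and 96.1% in depleted cells, against 51.4% and 89.2% in control cells. In both lost LSVs the PMA-treated control cells stood apart from the other 3 groups. The tables hold no expression values, so the depletion itself was not measured here.

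The gained LSVs were more mixed in shape. GPI, the glycolytic glucose-6-phosphate isomerase, had a retained intron whose spliced junction was at 97.1% with PMA and 25.0% without in depleted cells, against 62.4% and 64.7% in control cells. CYP4V2, a fatty acid hydroxylase, had a cassette exon at 83.7% and 5.9% in depleted cells, against 51.9% and 44.6% in control cells. In both genes depleted cells lay above control cells with PMA and below them without. In the long noncoding RNA gene GABPB1-AS1 the lead junction had 2.8% and 59.7% in depleted cells, against 26.0% and 21.7% in control cells, the opposite order.

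A second shape was a departure with PMA alone. FOXP1, a forkhead transcription factor of lymphocytes, had an exon at 62.4% with PMA and 7.7% without in depleted cells, against 7.0% and 3.7% in control cells. IL32, a cytokine made by activated T cells, had a junction at 49.3% and 3.6% in depleted cells, against 2.5% in both states of control cells. PPP1R3E, a glycogen-targeting subunit of protein phosphatase 1, had 38.1% and 97.0% in depleted cells, against 96.1% and 96.5% in control cells. The spliced junction of a retained intron in MYEF2 had 63.4% and 6.3% in depleted cells, against 17.2% and 7.4% in control cells. In these 4 genes PMA-treated depleted cells were the group that differed from the rest.

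In 3 genes the departure was in untreated depleted cells. PKP4, a plakophilin of cell junctions, had a junction at 7.2% with PMA and 63.8% without in depleted cells, against 2.5% in both states of control cells. USP44, a deubiquitinase, had 67.4% and 7.4% in depleted cells, against 71.9% and 66.0% in control cells. The spliced junction of a retained intron in COL27A1, a fibrillar collagen, had 95.5% and 41.9% in depleted cells, against 96.8% and 95.5% in control cells. With PMA, depleted and control cells differed by under 10 points at all 3.

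The other gained genes differed in both states or by intermediate amounts. PPFIA1, a liprin of focal adhesions, had an exon at 11.7% with PMA and 69.2% without in depleted cells, against 96.0% and 97.1% in control cells. SYNE2, the giant nesprin of the nuclear envelope, had an exon at 67.0% and 29.8% in depleted cells, against 12.1% and 17.3% in control cells. WDR5, a subunit of histone H3 methyltransferase complexes, had one at 93.2% and 64.5% in depleted cells, against 43.9% and 49.9% in control cells. The gap between depleted and control cells was wider with PMA in each of the 3.

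IKBKB, the beta subunit of the kinase that releases NF-kappaB, had a junction at 85.7% with PMA and 44.4% without in depleted cells, against 96.4% and 96.8% in control cells. In SLC25A29, a mitochondrial carrier of basic amino acids, the share of a retained intron was 32.9% and 90.6% in depleted cells, against 52.0% and 48.6% in control cells. At both lead junctions the posterior probability reached 0.95 without PMA and not with it. Other called LSVs of SLC25A29 were put in the lost and kept classes.

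**Figure D3:**
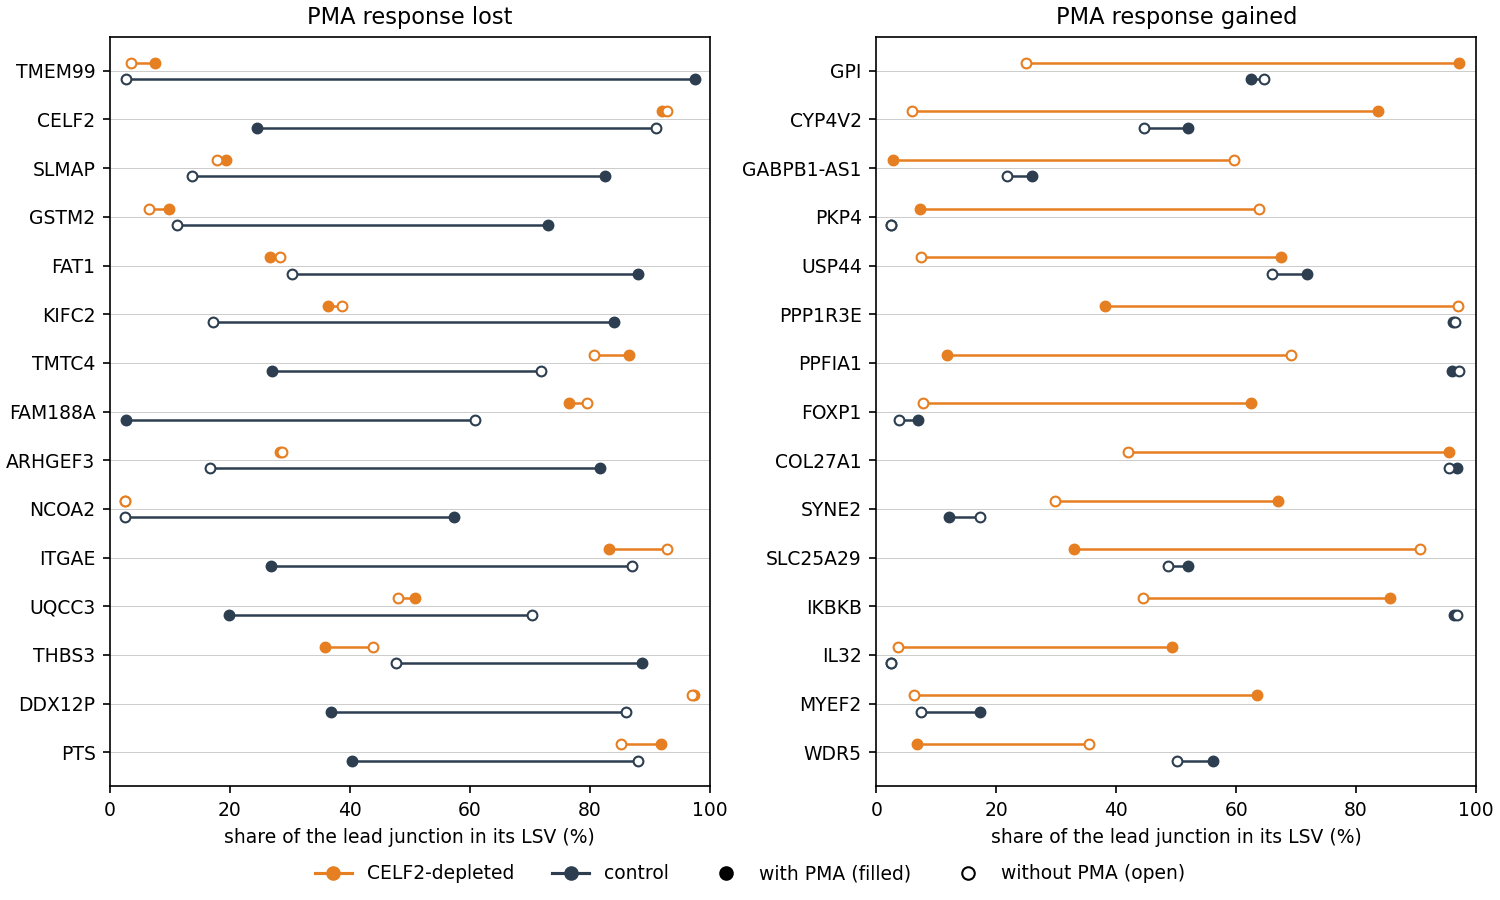
For the 15 leading lost genes and the 15 leading gained genes, the percentage share of the lead junction is shown in CELF2-depleted cells (orange) above control cells (dark), with PMA (filled) and without PMA (open), as the authors' pooled values. In the lost panel the dark pairs are far apart and the orange pairs close together, as in TMEM99 (97.5% and 2.7% against 7.5% and 3.5%), and in the gained panel the reverse holds.

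Counted over all members, the state in which depletion made the difference was not evenly divided. Of the called lost LSVs, 230 of 392 (58.7%) differed between depleted and control cells by at least 20 points with PMA and by under 10 points without, and 32 (8.16%) the other way round. Of the called gained LSVs the same held for 82 of 224 (36.6%) with PMA and 56 (25.0%) without. With uncalled members included, 422 lost LSVs (37.4%) differed with PMA and 111 (9.85%) without, and 189 gained LSVs (26.1%) with PMA and 126 (17.4%) without. Neither pattern held in the rest, 130 called lost (33.2%) and 86 called gained LSVs (38.4%). With uncalled members included, the rest were 594 lost (52.7%) and 410 gained LSVs (56.6%). The call needs a difference in some state, so the called shares depend on it. Over all joined LSVs, calls were also more common with PMA (1.72%) than without (0.9%).

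Among lost members whose difference lay without PMA, untreated depleted cells lie near the level of PMA-treated control cells, as the bounds used to pick them fix. IGF1R, the receptor of insulin-like growth factor 1, had a junction at 86.8% with PMA and 94.9% without in depleted cells, against 95.6% and 51.3% in control cells. SATB1, a chromatin organiser of thymocytes, had one at 28.2% and 26.8% in depleted cells, against 28.7% and 68.7% in control cells. The spliced junction of a retained intron in SERPINF1, a secreted serpin, had 81.6% and 76.5% in depleted cells, against 77.3% and 34.5% in control cells. Another called LSV of SERPINF1 was put in the kept class. Untreated control cells were the group apart in all 3, which the same bounds fix. These 3 were named by size of difference after their values had been seen.

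Genes of RNA-binding splicing regulators were described first among 11 gene lists. Of 1059 LSVs in 78 measured genes of this list, 31 were lost (2.93%, in 21 genes) and 5 gained (0.472%, in 5 genes), against 1.29% and 0.828% of all LSVs. A called lost LSV was found in 12 of the 78 genes and a called gained one in 2, against 317 and 193 of all 10517 genes. Genes of the list held more LSVs each than genes in general, which raises a count by gene. The list includes CELF2 itself, and the same exon was counted from both sides in HNRNPL and ACIN1. The same lead junction was likewise counted in a source and a target LSV in HNRNPC, SRSF5 and TRA2A. The median PMA change over the list's LSVs was 1.1 points in depleted and 0.9 points in control cells, against 0.5 points in both over all genes.

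Among the SR and SR-like proteins, which mostly promote exon inclusion, SRSF6 had a lead junction at 67.7% with PMA and 73.1% without in depleted cells, against 31.9% and 75.7% in control cells. TRA2A, a partner of SR proteins, had 70.8% and 68.1% in depleted cells, against 42.9% with PMA and 68.8% without in control cells. ACIN1, a peripheral component of the exon junction complex, had an exon of 120 nucleotides included at 36.6% and 36.2% in depleted cells, against 76.9% with PMA and 52.2% without in control cells.

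Among the hnRNP proteins, many of which repress exons, HNRNPL had a 70-nucleotide exon included at 44.4% with PMA and 43.6% without in depleted cells, against 79.8% and 55.0% in control cells. HNRNPC had a lead junction at 49.5% and 47.5% in depleted cells, against 80.3% with PMA and 58.6% without in control cells. In HNRNPK the share of a retained intron was 38.0% and 42.4% in depleted cells, against 73.5% with PMA and 36.1% without in control cells. At these 3 the depleted cells held nearly the same level in both states.

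Of the other RNA-binding proteins, CELF1, the closest relative of CELF2, had a lost LSV of 2 junctions, read from the target side. Its shorter junction had 95.4% with PMA and 96.5% without in depleted cells, against 62.6% and 90.8% in control cells. PTBP2, a repressor of the polypyrimidine tract-binding family, had an exon at 35.7% and 42.2% in depleted cells, against 2.6% with PMA and 30.5% without in control cells. Another called LSV of PTBP2 was put in the kept class. CIRBP, a cold-induced RNA-binding protein, had a junction at 62.5% and 62.4% in depleted cells, against 32.1% with PMA and 54.0% without in control cells. Lost LSVs in RBM39 and HNRNPDL were also called, while those in LUC7L, SFPQ, RBM6, PCBP2, SRSF5, SRPK2, RBM5 and CLK4 were among those not called.

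The called gained genes of the list were MATR3 and LUC7L3. MATR3, a nuclear matrix protein that represses exons, had an exon included at 12.7% with PMA and 37.8% without in depleted cells, against 54.2% and 46.8% in control cells. In LUC7L3, which is linked to the U1 particle, the share of a retained intron was 31.1% and 58.6% in depleted cells, against 64.3% and 64.9% in control cells. Depleted cells with PMA were the lowest group in both.

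**Figure D4:**
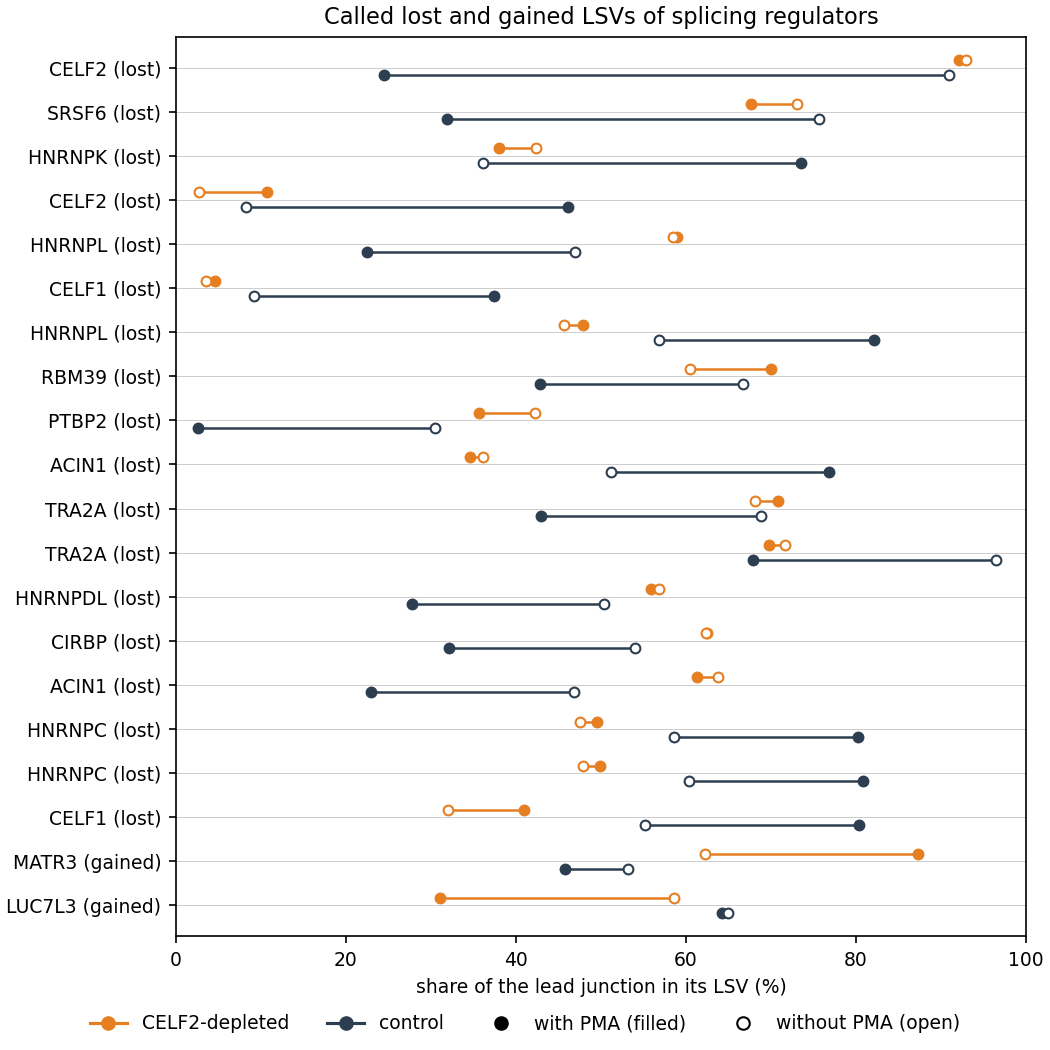
The percentage share of the lead junction is shown for each called lost or gained LSV in the list of splicing regulators, in CELF2-depleted cells (orange) above control cells (dark), with PMA (filled) and without PMA (open). All but the rows of MATR3 and LUC7L3 are lost LSVs, in which the orange points lie within 10 points of each other.

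In the other lists of pathways between 0.725% and 1.64% of LSVs were lost and between 0.438% and 1.07% gained. Of 914 LSVs in genes of MAPK and small GTPase signalling, 15 were lost (1.64%) and 4 gained (0.438%). NF1, which turns Ras off, had a junction at 18.0% with PMA and 13.6% without in depleted cells, against 88.8% and 49.1% in control cells. ARHGEF1, another guanine nucleotide exchange factor, had one at 83.4% and 79.6% in depleted cells, against 34.1% with PMA and 62.3% without in control cells. DOCK9, an exchange factor for Cdc42, was gained, with 46.1% and 3.7% in depleted cells, against 2.7% and 2.6% in control cells.

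Of 689 LSVs in genes of T cell receptor signalling, 6 were lost (0.871%) and 7 gained (1.02%). PPP3CB, a catalytic subunit of calcineurin, was gained, with a junction at 58.5% with PMA and 93.6% without in depleted cells, against 96.5% and 97.3% in control cells. MALT1, the paracaspase that relays the signal to NF-kappaB, was gained as well, with an exon included at 90.1% and 65.5% in depleted cells, against 39.2% and 34.7% in control cells. UBASH3A, a negative regulator of the receptor, was lost, with 93.2% and 88.5% in depleted cells, against 66.4% with PMA and 86.8% without in control cells.

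In the NF-kappaB and TNF receptor list 4 of 371 LSVs were lost (1.08%) and 3 gained (0.809%). TRAF3, an adaptor that restrains noncanonical NF-kappaB signalling, was lost from both sides of an exon. One of its junctions had 97.4% with PMA and 97.5% without in depleted cells, against 61.6% and 92.4% in control cells. NLRC5, a regulator of MHC class I genes, was gained, with 36.4% and 61.2% in depleted cells, against 72.1% and 62.5% in control cells.

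Of 634 LSVs in genes of lymphoid transcription factors, 6 were lost and 6 gained (0.946% each). IRF7, which drives type I interferon genes, had a lost LSV whose lead junction was at 35.4% with PMA and 42.0% without in depleted cells, against 85.7% and 51.4% in control cells. RUNX1 had a gained exon at 62.0% and 32.6% in depleted cells, against 20.2% and 24.8% in control cells. SP3 had a lost LSV with a junction at 2.6% and 2.5% in depleted cells, against 32.6% with PMA and 5.3% without in control cells.

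For vesicle trafficking 19 of 1158 LSVs were lost (1.64%) and 11 gained (0.95%). STX2, a syntaxin of the plasma membrane, had an exon at 14.5% with PMA and 10.4% without in depleted cells, against 44.5% and 9.7% in control cells. TRAPPC12, a tethering factor of the secretory pathway, had a junction at 96.0% and 96.7% in depleted cells, against 62.6% with PMA and 91.5% without in control cells. For actin and adhesion genes 16 of 1220 LSVs were lost (1.31%) and 13 gained (1.07%). In PPP1R12A, the targeting subunit of myosin phosphatase, a lost junction had 75.4% and 85.3% in depleted cells, against 12.6% with PMA and 56.4% without in control cells. Its change in depleted cells, -9.9 points, had the direction of control cells and lay just inside the 10-point bound. Depleted and control cells also differed there without PMA (posterior probability 0.997). In DST, a spectraplakin, a lost junction had 72.4% and 67.1% in depleted cells, against 20.5% and 55.3% in control cells.

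MICAL3, an actin oxidase, was gained, with a junction at 37.7% with PMA and 5.4% without in depleted cells, against 3.2% and 2.5% in control cells. Chromatin regulators had 15 lost and 11 gained of 1625 LSVs (0.923% and 0.677%). In ASXL1, a Polycomb-linked protein, a lost junction had 56.1% and 63.9% in depleted cells, against 77.5% with PMA and 48.2% without in control cells. Another called LSV of ASXL1 was put in the reversed class. YEATS2, a histone reader, was gained with 60.3% and 96.7% in depleted cells, against 95.1% and 88.2% in control cells, and TRRAP, a scaffold of acetyltransferase complexes, with 63.6% and 86.7% in depleted cells, against 53.4% and 49.8% in control cells.

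Cell cycle genes had 13 lost and 12 gained of 1272 LSVs (1.02% and 0.943%). KIF18A, a mitotic kinesin, had a lost junction at 95.3% with PMA and 97.4% without in depleted cells, against 62.6% and 97.3% in control cells. ATR, a checkpoint kinase, had one at 97.3% in both states of depleted cells, against 69.6% with PMA and 94.3% without in control cells. ASPM, a spindle pole protein, had a gained exon at 25.6% and 56.5% in depleted cells, against 63.8% and 70.9% in control cells. The level with PMA was the one that set the control cells apart in both lost genes.

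Ubiquitin pathway genes had 11 lost and 12 gained of 1517 LSVs (0.725% and 0.791%). KLHL42, a substrate adaptor of a cullin ligase, had a gained exon at 40.3% with PMA and 7.5% without in depleted cells, against 53.1% and 55.1% in control cells. KLHL7, another such adaptor, had one at 51.1% and 21% in depleted cells, against 57.9% and 53.2% in control cells. MIB2, a ligase of Notch ligands, had a gained junction at 72.8% and 41.6% in depleted cells, against 41.6% and 33.0% in control cells. In the KLHL genes the untreated depleted cells were lowest, and another called LSV of KLHL42 was put in the kept class.

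A last list held 28 genes with splicing events known from activated JSL1 or Jurkat cells or from work on CELF2, some of it on such cells, so its counts are not independent evidence. Of its 361 LSVs 14 were lost (3.88%) and 7 gained (1.94%). MAP2K7, a kinase that activates JNK, had a lost junction at 78.2% with PMA and 82.6% without in depleted cells, against 37.0% and 58.9% in control cells. In SEC16A, a scaffold of ER exit sites, one LSV was lost and a cassette exon was reversed, with inclusion of 65.4% and 54.6% in depleted cells, against 11.1% and 43.2% in control cells. The variable exons of PTPRC, the phosphatase CD45 whose exon skipping is a hallmark of T cell activation, were neither lost nor gained, with 3 LSVs kept and 1 mixed. The kept ones included a junction at 33.0% with PMA and 71.9% without in depleted cells, against 50.3% and 69.0% in control cells.

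By event type, LSVs of 3 or more junctions were more common in both classes than in the full set, at 63.7% of lost and 61.9% of gained LSVs, against 42.8% of all. The rule takes the largest change over the junctions of an LSV. Cassette exons were 23.1% of lost and 20.1% of gained LSVs, against 33.7% of all, and 2-choice retained introns 10.8% and 15%, against 15.8%. Junctions that were not in the annotation were present in 66.1% of lost and 67.4% of gained LSVs, against 67.6% of all.

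Neither class had a single direction. Of the 260 lost cassette LSVs, inclusion in control cells was higher with PMA than without in 147 and lower in 113, and among the 96 called ones in 48 and 48. Inclusion is here the share of the shorter junction. Among exons seen from both sides, only 56 were lost by the source LSV and 57 by the target LSV. The other lost LSVs of this type may include alternative first or last exons. Of the 146 gained cassette LSVs, inclusion in depleted cells was higher with PMA in 67 and lower in 79, and in 34 and 34 of the 68 called ones. In the 2-choice retained introns of the lost class the intron share in control cells was higher with PMA in 56 of 122 and lower in 66. In those of the gained class the intron share in depleted cells was higher with PMA in 40 of 109 and lower in 69.

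**Figure D5:**
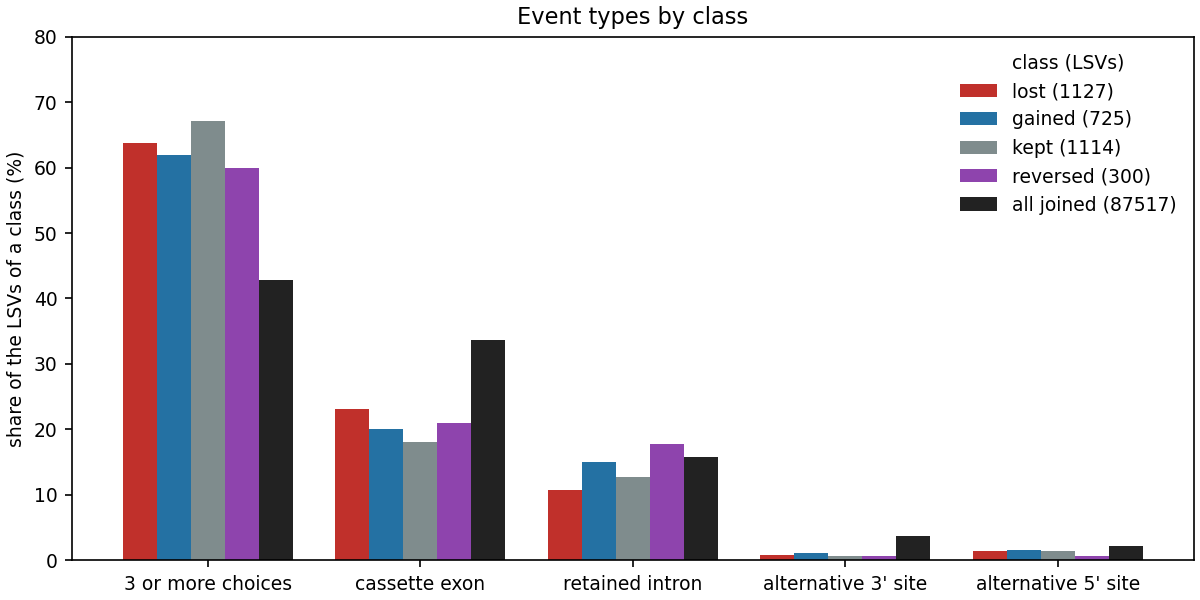
Bars give the percentage of LSVs of each event type in the lost, gained, kept and reversed classes and in all 87517 joined LSVs. LSVs of 3 or more junctions make up 63.7% of lost and 61.9% of gained LSVs, against 42.8% of all.

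The reversed class was set beside them because depleted and control cells moved apart there. RABL2A, a small GTPase of cilia and flagella, had a junction at 58.4% with PMA and 25.4% without in depleted cells, against 7.7% and 51.8% in control cells. TBCCD1, a centrosome-linked protein, had an exon at 22.1% and 47.2% in depleted cells, against 73.3% and 40.2% in control cells. In SIN3B, a corepressor scaffold, the share of a retained intron was 43.4% and 82.9% in depleted cells, against 74.9% and 47.8% in control cells. HPS5, a subunit of a complex that forms lysosome-related organelles, had a junction at 26.6% and 52.5% in depleted cells, against 50.9% and 20.9% in control cells. Of the 300 reversed LSVs 165 (55.0%) were called.

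The remaining leading reversed LSVs were in BOD1L1 and HMGB1. BOD1L1, which protects stalled replication forks, had a junction at 83.5% with PMA and 53.8% without in depleted cells, against 39.0% and 67.3% in control cells. HMGB1, a chromatin protein that can act as an alarm signal, had one at 57.1% and 25.5% in depleted cells, against 60.2% and 84.2% in control cells. Depleted and control cells were close to each other with PMA in HMGB1 alone of the 6 leading reversed genes.

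Only 2 exons were reversed from both sides. NAA16, a paralog of the auxiliary subunit of an N-terminal acetyltransferase, had inclusion of 45.4% with PMA and 70.4% without in depleted cells, against 82.4% and 65.4% in control cells. BCORL1, a transcriptional corepressor, had 22.6% and 38.9% in depleted cells, against 44.0% and 20.0% in control cells. In both, PMA-treated depleted cells included the exon less than PMA-treated control cells.

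The leading kept LSVs had a PMA change of more than 30 points in both kinds of cells. EVL, an actin regulator of the Ena/VASP family, had a junction at 83.0% with PMA and 22% without in depleted cells, against 96.8% and 55.4% in control cells. TBC1D4, a GTPase-activating protein for Rab proteins, had one at 39.3% and 79.1% in depleted cells, against 9.6% and 55.1% in control cells. PORCN, the acyltransferase of Wnt proteins, had 43.6% and 85.8% in depleted cells, against 12.5% and 65.2% in control cells. In these 3 genes the PMA change had the same direction in both kinds of cells, and at the lead junction the posterior probability of a depletion difference reached 0.95 in 1 state alone.

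In NUDT4, a diphosphoinositol polyphosphate hydrolase, the kept junction was at 48.2% with PMA and 93.8% without in depleted cells, against 13.0% and 69.2% in control cells. SDHAP3 had one at 60.9% and 2.5% in depleted cells, against 83.7% and 40.5% in control cells. In FAM177A1 the share of a retained intron was 43.2% and 75.4% in depleted cells, against 8.7% and 59.5% in control cells. At each lead junction the posterior probability of a depletion difference reached 0.95 in 1 state alone.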

How the data were processed

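Polyadenylated RNA was sequenced from TruSeq stranded libraries, 8 in 4 groups of 2 by the titles, per the labels' protocols. STAR 2.5.1b and the build hg19 are named in the submitters' processing notes. The tables have the layout of MAJIQ/VOILA, with version and annotation not stated. The authors deposited 1 table for each state (with PMA, without PMA), holding for each junction the share of its LSV as a fraction for depleted and for control cells, an expected change (depleted minus control) and a posterior probability that it is 20 points or more. Shares ran from 2.5% to 97.5%. The authors pooled both libraries of a group, and read depth and whether libraries came from separate cultures are not given, so there is no replicate error. The tables were quantified separately, so a PMA change is set across tables.

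The tables, with 91729 LSVs with PMA and 91480 without, were joined on LSV identifier and identical junctions (87517 LSVs, 241138 junctions, 10517 genes) in Python 3.11.15 with pandas 2.3.3. Calls use the probability per the file headers. Classes used the largest change over junctions, with the lead junction deciding kept and reversed; the script was tested on simulated data. Genes were named by rank: called LSVs by the difference of shrunken changes, 1 for each gene, the first 15 lost and gained; called kept and reversed LSVs by the smaller of both PMA changes, the first 6; exons in the same class from both sides, the first 10; and up to 4 genes for each list. HNRNPL, ACIN1 and other members of a list named beyond this, IGF1R, SATB1, SERPINF1, the sequences' exons of SUCO and APP and the genes under other observations were chosen after their values were seen. The members and lists were chosen with earlier results of these data known. Alternatives changed the bounds, junction kinds, sides and calls. Reads shared with paralogs or pseudogenes could not be resolved. Per-sample columns outside the analysis numbered 0.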

Additional observations from a re-analysis of the deposited data

How the results depend on the processing

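The classes rest on bounds, and their counts move with them. With a change of at least 30 points in 1 kind of cells there were 253 lost, 131 gained, 373 kept and 79 reversed LSVs (836 in the 4 classes). With a change of under 5 points in the other kind there were 557, 348, 1738 and 578 in the same order. LSVs of 2 junctions alone gave 409, 276, 366 and 120 (1171 in all), and leaving out LSVs with a junction outside the annotation gave 382, 236, 319 and 103 (1040). Source LSVs alone gave 536, 386, 558 and 148 (1628), and target LSVs alone 591, 339, 556 and 152 (1638). Requiring a difference of shrunken changes of at least 10 points left 523 kept LSVs, and requiring a call left 392, 224, 183 and 165 (964). At a posterior probability of 0.99 there were 149 called gained LSVs. Each of these except the 5-point bound removes LSVs by construction. Lost outnumbered gained LSVs under each of these settings, with 1.39 to 1.93 lost for each gained LSV, against 1.55 as reported. Of the 15 named lost LSVs 10 and of the 15 named gained ones 6 stayed in their class at the 5-point bound, and 5 and 7 had no junction outside the annotation. Of the exons lost by the source LSV, 51.8% were lost by the target LSV as reported, 50.0% without exons of LSVs with unannotated junctions, and 45.5% without those flagged for alternative sites, a setting chosen after seeing the data; for gained exons these were 30%, 30.4% and 22.2%. No paired analysis was possible because the authors' tables hold 1 pooled value for each group, and leaving out a replicate was not possible for the same reason. The limits are therefore those of pooled values: neither library-to-library spread nor read depth is known, and the posterior probability covers the depletion difference within a state but not the PMA change. Exons read from both sides had an SD of 4.19 points between sides, which leaves out the error of the skipping junction that both share.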

Other observations

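A called lost and a called gained LSV at separate sites were held by 6 genes. Of all 10517 genes, 317 had a called lost and 193 a called gained LSV, and nothing is read from the overlap. In DNM2, a dynamin of endocytosis, a lost junction had 89.4% with PMA and 84.2% without in depleted cells, against 49.7% and 73.3% in control cells. A gained cassette exon upstream of it was included at 3.3% and 38.2% in depleted cells, against 4.8% and 9.4% in control cells. In FANCA, a core subunit of the Fanconi anaemia complex, a lost exon had inclusion of 6.5% with PMA and 3.6% without in depleted cells, against 45.7% and 9.9% in control cells, and a junction elsewhere was gained, with 54.9% and 92.0% in depleted cells, against 90.4% and 84.6% in control cells. TMEM260 held, beside its gained exon, a lost exon included at 97.1% and 97.5% in depleted cells, against 64.0% with PMA and 96.8% without in control cells. ATP6AP1L held a lost exon at 2.5% in both states of depleted cells, against 2.6% with PMA and 40.5% without in control cells.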
